A study of Homo sapiens with 6 samples.

Results

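The 58 genes described here encode the machinery that separates chromosomes at cell division, and they were chosen by name from a table of 58735 genes. They fall into 15 centromere protein (CENP) genes, 7 genes of the outer kinetochore, 6 of the spindle checkpoint, 9 of mitotic kinases, their partners and cyclins, 12 kinesins, and 9 of the spindle, cytokinesis and chromosome structure. All 58 were in the table. Messenger RNA had been sequenced from U937 cells, a human myeloid leukaemia line, in 3 libraries labelled as overexpressing BCL6B (oeBCL6B) and 3 labelled as control (NC), all of the same labelled batch. BCL6B is a zinc finger protein related to the repressor BCL6, and the study asks what it does to leukaemia cells. Per the study's design text the gene was delivered by lentivirus; what the control cells received is not given in the sources used here. Nothing in the labels says that the replicates came from separate cultures, so a p-value here compares only these 6 libraries, whose spread may be technical.

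BCL6B itself (ENSG00000161940, chromosome 17, 7023020 to 7030290, plus strand, GRCh38) had 1215, 1229 and 1712 reads in the overexpression libraries and no read in any control. Reads in listed genes ranged from 17095256 to 18870186 with overexpression and from 16481014 to 17627289 in controls. Of 15 myeloid markers 13 averaged at least 1 FPKM (fragments scaled to gene length and library size), led by MPO, which encodes myeloperoxidase, while the granule gene ELANE averaged 0.491 FPKM and CD68 0.0158 FPKM. The summed level of the myeloid markers was 2094 to 2295 FPKM with overexpression and 2717 to 2900 FPKM in controls. MPO, with a mean of 1846 FPKM, dominated this sum. Over the 14 myeloid markers tested (limma, described below) the median log2 change was 0.01, with 7 negative and 7 positive. Of these 42.9% fell and 0 rose, where 10.1% and 8.18% of all tested genes did. The part of the myeloid marker level in the results below was not tested. Of the other markers, 2 of 7 lymphoid (CD79A and CD3D), 1 of 7 erythroid or megakaryocytic (ITGA2B) and 1 of 8 epithelial or fibroblast genes (EPCAM) averaged at least 1 FPKM. HBB, HBA1, HBA2, PF4 and GP9 had no read.

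The kinetochore is the protein platform that grows on the centromere of each chromosome and holds spindle microtubules. Its inner layer, the constitutive centromere-associated network, sits on the centromeric histone CENPA through the cell cycle, and its outer layer binds microtubules in mitosis. The spindle checkpoint delays anaphase until every kinetochore is attached, and kinases, cyclin B and kinesin motors drive entry into mitosis, spindle assembly and cytokinesis. Most of these genes are known to be transcribed late in the cell cycle. The MuvB complex with MYBL2 and FOXM1 activates them in dividing cells, and MuvB with RBL2 or RBL1 and E2F4, the DREAM complex, represses them in resting cells. MuvB contacts a short element named the cell cycle genes homology region (CHR).

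Promoters are shown because many of these genes fell and because the CHR is an element known from many of them. RefSeq windows of 300 bases (GRCh38.p14, from 250 bases before to 50 after the annotated start) were matched by symbol for 49 members. CENPH, CENPL, CENPM, KNL1, BUB3, TTK, AURKA, BIRC5 and TPX2 had no entry. The windows printed below belong to members that passed the test. Capitals mark each CHR match (TTTGAA or TTCGAA, either strand), and each window is written 5′ to 3′ on the strand of its gene. Only these strings were searched, so a window without a match may hold another form of the element. CENPF lies at chr1:214602945-214603244 (plus strand), NUF2 at chr1:163321704-163322003 (plus strand), BUB1 at chr2:110678014-110678313 (minus strand), DLGAP5 at chr14:55191536-55191835 (minus strand), CCNB1 at chr5:69166900-69167199 (plus strand) and CENPU at chr4:184734047-184734346 (minus strand).
CENPF: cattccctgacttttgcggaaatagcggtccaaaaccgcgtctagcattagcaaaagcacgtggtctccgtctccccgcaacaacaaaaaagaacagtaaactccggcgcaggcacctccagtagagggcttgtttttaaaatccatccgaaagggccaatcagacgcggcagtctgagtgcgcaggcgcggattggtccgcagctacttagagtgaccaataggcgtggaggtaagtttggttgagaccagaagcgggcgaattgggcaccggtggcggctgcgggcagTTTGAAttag
NUF2: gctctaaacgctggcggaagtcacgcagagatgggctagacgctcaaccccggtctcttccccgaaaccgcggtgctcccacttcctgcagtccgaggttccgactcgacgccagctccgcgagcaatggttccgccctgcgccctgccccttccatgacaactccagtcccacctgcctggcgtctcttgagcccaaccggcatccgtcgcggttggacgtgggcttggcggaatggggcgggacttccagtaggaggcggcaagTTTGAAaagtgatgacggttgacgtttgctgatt
BUB1: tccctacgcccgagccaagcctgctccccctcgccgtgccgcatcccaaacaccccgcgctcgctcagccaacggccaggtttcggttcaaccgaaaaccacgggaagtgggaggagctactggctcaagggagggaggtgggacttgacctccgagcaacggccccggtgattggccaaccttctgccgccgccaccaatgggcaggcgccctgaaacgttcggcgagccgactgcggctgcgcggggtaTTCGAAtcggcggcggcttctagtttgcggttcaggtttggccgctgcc
DLGAP5: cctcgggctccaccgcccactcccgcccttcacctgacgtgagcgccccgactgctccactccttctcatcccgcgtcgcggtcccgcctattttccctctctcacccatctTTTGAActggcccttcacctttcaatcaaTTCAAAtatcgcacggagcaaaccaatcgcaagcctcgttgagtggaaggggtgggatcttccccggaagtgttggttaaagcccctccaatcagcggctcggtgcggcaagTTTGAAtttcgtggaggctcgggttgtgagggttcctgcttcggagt
CCNB1: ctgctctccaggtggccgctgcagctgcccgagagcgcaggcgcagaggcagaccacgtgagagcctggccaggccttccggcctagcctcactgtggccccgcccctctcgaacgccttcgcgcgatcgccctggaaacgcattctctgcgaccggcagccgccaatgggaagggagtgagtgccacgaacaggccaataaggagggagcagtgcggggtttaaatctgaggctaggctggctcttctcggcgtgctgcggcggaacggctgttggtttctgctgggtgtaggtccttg
CENPU: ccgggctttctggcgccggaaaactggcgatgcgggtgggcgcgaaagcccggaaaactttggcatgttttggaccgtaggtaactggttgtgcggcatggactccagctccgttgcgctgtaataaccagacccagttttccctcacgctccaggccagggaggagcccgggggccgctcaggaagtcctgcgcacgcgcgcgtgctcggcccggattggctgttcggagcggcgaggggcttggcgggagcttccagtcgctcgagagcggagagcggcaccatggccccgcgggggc
The match lay 40 bases after the start in CENPF, 16 in NUF2, 1 in BUB1 and 3 in DLGAP5, counted to its first base with the start as 0. DLGAP5 held further matches at -109 and -138. The NUF2 window follows RefSeq's start, which lies inside the longer span of the gene in the deposited table. CCNB1, which also fell, and CENPU, which rose, held no match in this window. The window of KIF2C, which fell too and is not printed, held no CHR match, no CCAAT and no E2F motif. CCNB1 held CCAAT at -87 and -55, and CENPU held it at -34 with an E2F motif at -211.

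A CHR match was present in 35 of the 49 members with a window (71.4%), against 15.2% of the 8893 tested genes with one and 16.4% of all 35116 windows. A gene with several windows was counted when any held the motif. CCAAT, the box bound by NF-Y, was present on either strand in 38 of 49 members (77.6%), against 43.2% of tested genes and 34.6% of all windows. Both motifs occurred together in 29 members (59.2%), against 6.36% of tested genes and 6.38% of windows. An E2F motif (TTTCCCGC, TTTGGCGC, TTTGCCGC or TTTCGCGC, either strand) was present in 6 of 49 (12.2%), against 6.93% of tested genes and 3.31% of windows. The 3 motifs were searched separately, and matches of different motifs may overlap at their ends. The CHR share was 77.8% among members that fell (14 of 18) and 67.9% among members that did not pass (19 of 28), while 1 of 2 that rose held it. For CCAAT these shares were 72.2% among members that fell (13 of 18) and 78.6% among those that did not pass (22 of 28). They were 61.1% and 57.1% for CHR and CCAAT together, and 5.56% and 14.3% for the E2F motif. The differences between these shares were not tested. By class the CHR was present in 8 of 8 genes of the spindle and cytokinesis class, 4 of 4 checkpoint genes and 10 of 12 kinesins. It was present in 5 of 7 kinases and cyclins, 3 of 6 outer kinetochore genes and 5 of 12 CENP genes. Within the CENP class 3 of 9 genes of the constitutive centromere network held it. These matches describe letters in a window and are not measured binding sites.

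BCL6B-overexpressing cells had lower levels of many, but not all, of these genes. Of the 57 members tested 21 fell and 3 rose (limma on log2(FPKM + 1), adjusted p under 0.05 over all 14662 tested genes). That was 36.8% falling and 5.26% rising, where 10.1% of all tested genes fell and 8.18% rose. The median log2 change was -0.16, against -0.02 over all tested genes, and 42 of 57 members had a negative change, against 53.6% of tested genes. Those that fell stood between 68.6% and 86.2% of the control mean, and those that rose between 116% and 121%. In bulk RNA, fewer cells in late cell cycle stages and less RNA per cell cannot be told apart. The 3 overexpression libraries all lay below the 3 controls for 29 members and all above for 7, while 22.2% and 17.8% of all tested genes were separated in those ways. Median-ratio scaling gave 16 falls and 5 rises, and rescaling to TPM gave 20 and 0. In these 2 fits 8.53% and 10.4% of all tested genes fell. With 1 library left out the number of falls was 8 without control replicate 3 and 10 without overexpression replicate 2 or control replicate 1, and the number of rises was 0 without control replicate 1, 2 or 3 and 1 without overexpression replicate 2.

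**Figure D1:**
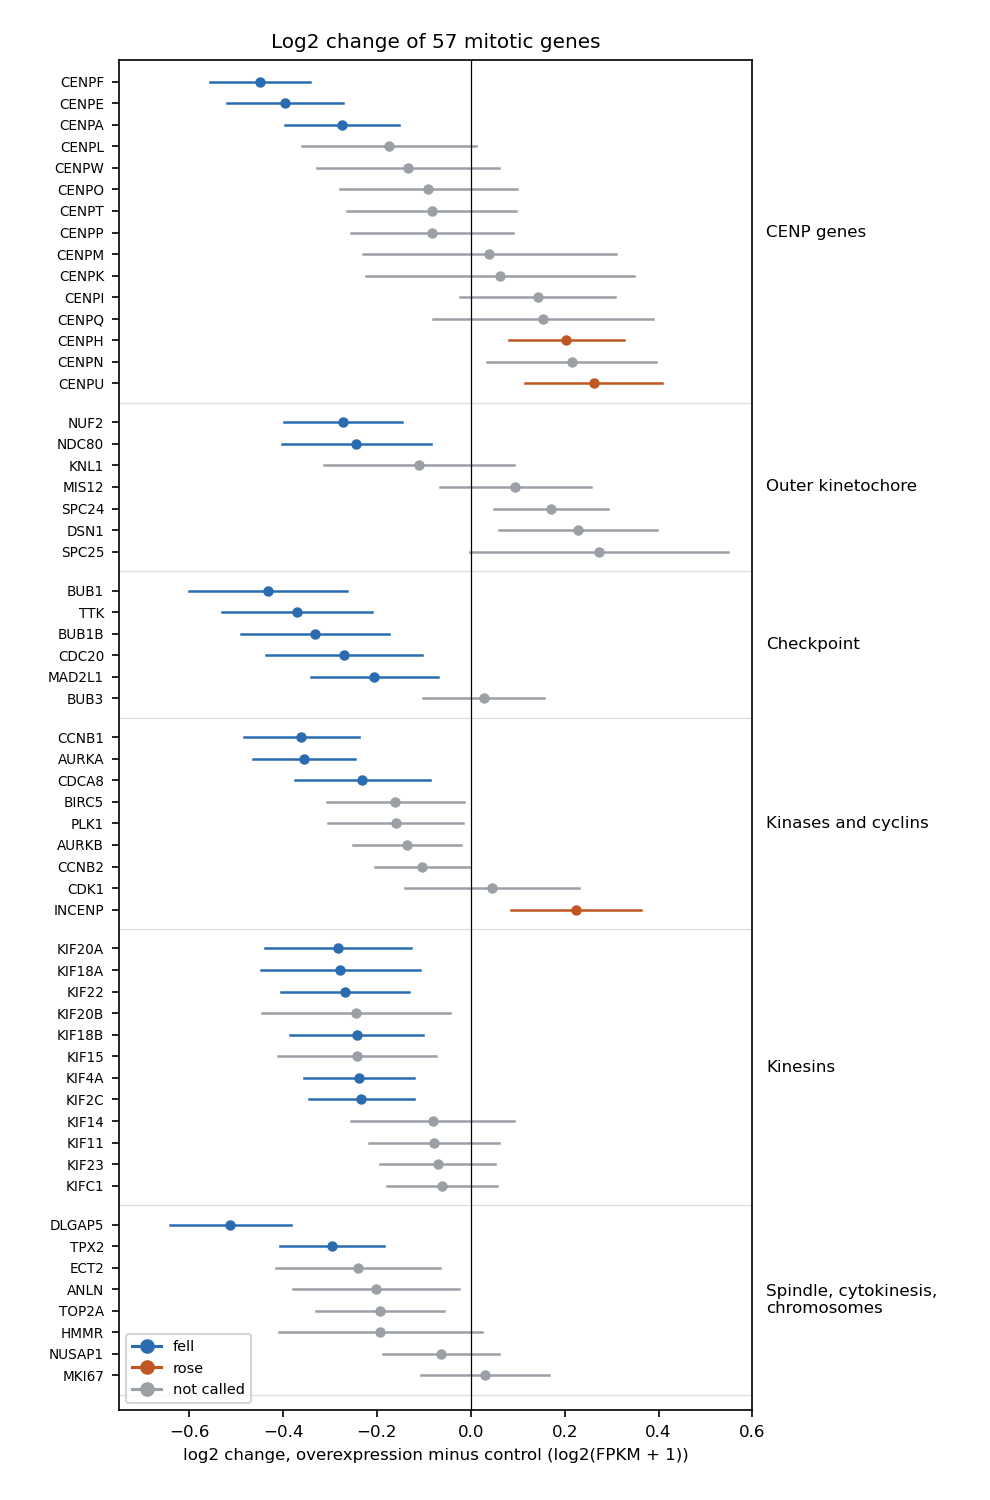
Log2 change (overexpression minus control, log2(FPKM + 1) scale) of the 57 tested genes by class, with 95% intervals from limma. Blue marks the 21 that fell, orange the 3 that rose and grey the 33 that did not pass; all 12 kinesins lie left of 0.

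The tested members were of middle to high level. Their means over the 6 libraries ran from 1.92 FPKM (CENPP) to 77.1 FPKM (TPX2) with a median of 18.8 FPKM, against a median of 4.55 FPKM over all tested genes, and they held 195 to 14750 reads per library. Among members that fell the median GC content was 43.2% and the median gene length 3958 bases. Members that did not pass had medians of 41.5% and 4321 bases, and all tested genes 48.0% and 3815 bases. With a spline correction on GC content and length 28 members fell (49.1%) and 4 rose. Calls grew in number over all genes too in that fit, where 14.6% of tested genes fell, against 10.1% without the correction. In total 3744 genes passed with it and 2687 without.

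**Figure D2:**
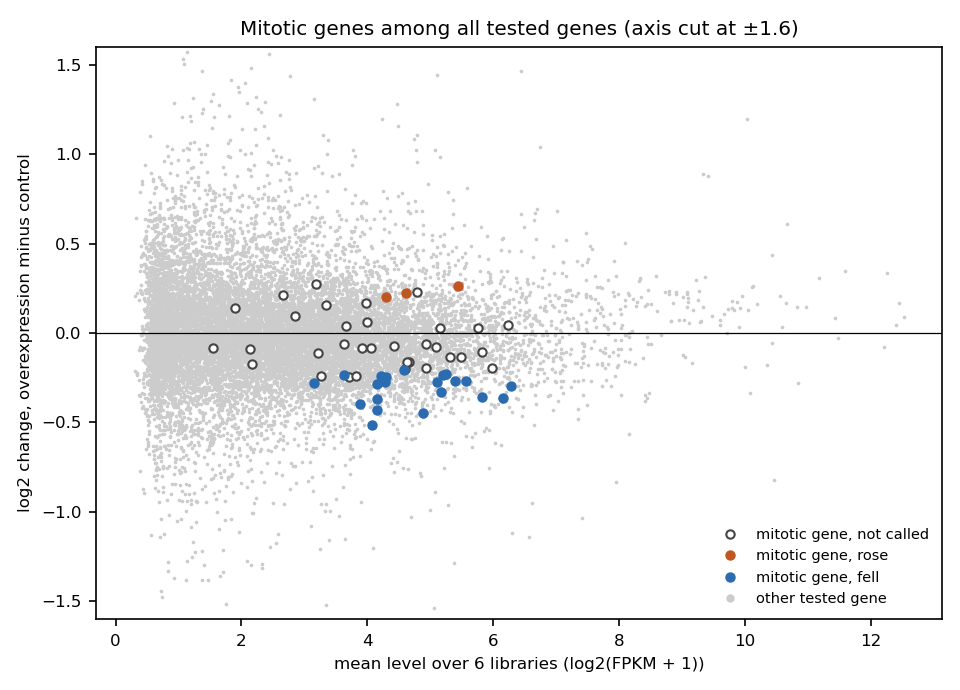
Log2 change against mean level for all tested genes (grey) and the mitotic members (blue fell, orange rose, open circles did not pass). BCL6B is left out and 15 other genes lie beyond the axis limit of 1.6. Among the mitotic genes DLGAP5 lies lowest, at -0.51, and SPC25 highest, at 0.27.

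Among the 15 CENP genes CENPF, CENPE and CENPA fell, and CENPU and CENPH of the constitutive network rose. That was 3 falls and 2 rises in 15, where 10.1% of all tested genes fell and 8.18% rose. The difference from these shares was not tested, and the list is small. CENPF, a large coiled-coil protein of the outer corona, had 25, 23.7 and 24.3 FPKM in the overexpression libraries, against 34.8, 32.7 and 33.2 FPKM in the controls (ENSG00000117724, chromosome 1, 214603195 to 214664588, plus strand). It fell to 0.724 of control (log2 change -0.45, SE 0.0453, limma adjusted p = 0.00233). CENPE, the kinesin motor that carries chromosomes to the spindle equator, had 12.3, 11.3 and 11.9 FPKM in the overexpression libraries, against 16.4, 16.02 and 15.2 FPKM in the controls (ENSG00000138778, chromosome 4, 103105806 to 103198409, minus strand). It fell to 0.745 of control (log2 change -0.40, SE 0.0522, limma adjusted p = 0.00499). For both genes each overexpression library lay below each control. CENPA, the histone H3 variant that marks the centromere, had 16.02, 16.9 and 17.2 FPKM in the overexpression libraries, against 21.0, 19.4 and 20.9 FPKM in the controls. The groups did not overlap (ratio 0.818, log2 change -0.27, SE 0.0513, limma adjusted p = 0.0146), but the call was lost without control replicate 1 or 3 (up to 0.0623).

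In the constitutive network of 12 genes, which held the remaining CENP members, 0 fell and 2 rose (16.7%). Of all tested genes 10.1% fell and 8.18% rose, so in a list of this size the counts lie near those shares. There were 0 falls and 3 rises at an unadjusted p under 0.05 and 0 and 2 with voom, a count-based limma fit. The median log2 change was 0.05 (0.02 to 0.09 across alternatives), and rises were 0 without control replicate 1, 2 or 3. CENPU, part of the network's CENP-O group that helps recruit PLK1, had 50.9, 44.1 and 44.7 FPKM in the overexpression libraries, against 38.7, 38.3 and 38.8 FPKM in the controls (ENSG00000151725, chromosome 4, 184694618 to 184734133, minus strand). Every overexpression library was above every control, the first replicate most (ratio 1.21, log2 change 0.26, SE 0.0614, limma adjusted p = 0.0295). CENPH, a partner of CENPI and CENPK, averaged 20.2 ± 1.13 FPKM with overexpression and 17.4 ± 0.188 FPKM in controls (SD, n = 3 each; ratio 1.16, log2 change 0.20, SE 0.0517, limma adjusted p = 0.0383). CENPU lost its call without control replicate 1, 2 or 3 (up to 0.0887), without the filter on low values and after TPM rescaling, and CENPH when any library other than overexpression replicate 3 was dropped (up to 0.12), in those settings and with the replicate number as a block. CENPW, a histone-fold protein and the member of this class with the highest mean on the FPKM scale, had 40.5, 43.4 and 41.7 FPKM in the overexpression libraries, against 42.6, 52.4 and 43.7 FPKM in the controls, with overlapping groups (log2 change -0.13, 95% interval -0.33 to 0.06, limma adjusted p = 0.297). CENPN, which reads the CENPA nucleosome, stood at 1.196 of control and CENPI at 1.145, with all overexpression libraries above the controls for both, yet neither passed (limma adjusted p = 0.0948 and 0.202). CENPL, the partner of CENPN, stood at 0.857 of control and was the only network gene with all overexpression libraries below the controls (limma adjusted p = 0.167). CENPK, CENPM, CENPO, CENPP, CENPQ and CENPT, further subunits of the network, lay between 0.917 and 1.13 of control with overlapping groups and limma adjusted p from 0.32 to 0.845. CENPO and CENPP share 27% and 38% of their exonic bases with genes on the other strand, ADCY3 and IPPK, and whether counting used strand is not given in the sources used here.

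In the outer kinetochore 2 genes fell (28.6%, against 10.1% of all tested genes) and the others did not pass. The NDC80 complex grips microtubules through 4 subunits, and the pair at its microtubule end fell. NUF2 had 32.1, 30.2 and 28.6 FPKM in the overexpression libraries, against 35.9, 37.1 and 37.3 FPKM in the controls (ENSG00000143228, chromosome 1, 163266576 to 163355764, plus strand). NDC80 had 18.3, 17.1 and 15.8 FPKM in the overexpression libraries, against 19.9, 21.6 and 19.6 FPKM in the controls. Both were separated between groups, with ratios of 0.824 and 0.838 (log2 change -0.27, SE 0.0527, limma adjusted p = 0.0162 for NUF2; log2 change -0.24, SE 0.0665, limma adjusted p = 0.0472 for NDC80). The pair at the kinetochore end stood on the other side of control. SPC24 had 15.7, 16.4 and 15.0 FPKM in the overexpression libraries, against 13.4, 14.2 and 14.0 FPKM in the controls, without overlap (ratio 1.13, log2 change 0.17, 95% interval 0.05 to 0.29, limma adjusted p = 0.0625). SPC25 stood at 1.249 of control (95% interval of the log2 change -0.0024 to 0.55, limma adjusted p = 0.149). The difference between the pairs was not tested. DSN1, a MIS12 complex subunit that links inner and outer layers, had 30.0, 27.4 and 29.2 FPKM in the overexpression libraries, against 26.2, 22.2 and 25.2 FPKM in the controls, again without overlap (ratio 1.18, limma adjusted p = 0.068). MIS12, of the same complex, and KNL1, the scaffold on which BUB proteins gather, stood at 1.08 and 0.916 of control with overlapping groups (limma adjusted p = 0.376 and 0.411).

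Of the 7 genes 2 fell and 0 rose by limma, 2 had a positive change at an unadjusted p under 0.05, and voom called 1 rise. Across scalings the number of rises was 0 to 2: SPC24 passed after median-ratio scaling and quantile normalization, and DSN1 after median-ratio scaling. NUF2 lost its call without overexpression replicate 2 or control replicate 1 or 3 (up to 0.0653) and NDC80 when any library other than overexpression replicate 1 was dropped (up to 0.119), without the filter, after median-ratio scaling, after quantile normalization and with the replicate block.

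Checkpoint genes fell in 5 of 6 cases (83.3%, against 10.1% of all tested genes) with 0 rising. Falls were 2 when any library other than overexpression replicate 1 was dropped. No rise was seen at an unadjusted p under 0.05 or with voom (median log2 change -0.30). BUB1, a kinase that recruits checkpoint proteins and protects cohesion at centromeres, had 15.3, 15.1 and 12.8 FPKM in the overexpression libraries, against 20.4, 19.4 and 19.4 FPKM in the controls (ENSG00000169679, chromosome 2, 110637698 to 110678114, minus strand). Its ratio was 0.730 (log2 change -0.43, SE 0.0713, limma adjusted p = 0.00993). TTK, also known as MPS1, the kinase that starts the checkpoint signal, had 16.1, 13.8 and 13.9 FPKM in the overexpression libraries, against 18.9, 19.8 and 18.6 FPKM in the controls (ENSG00000112742, chromosome 6, 80003887 to 80042527, plus strand). It fell to 0.764 of control (log2 change -0.37, SE 0.0673, limma adjusted p = 0.0133). BUB1B encodes BUBR1, a subunit of the mitotic checkpoint complex, and had 34.2, 28.99 and 29.8 FPKM in the overexpression libraries, against 39.0, 39.7 and 38.8 FPKM in the controls. Each of these had all overexpression libraries below the controls, and BUB1B fell to 0.792 (log2 change -0.33, SE 0.0664, limma adjusted p = 0.018).

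CDC20, the activator of the anaphase-promoting complex that the checkpoint holds back, had 33.8, 39.2 and 38.4 FPKM in the overexpression libraries, against 42.9, 47.6 and 44.3 FPKM in the controls (ratio 0.826, log2 change -0.27, SE 0.0701, limma adjusted p = 0.0404); a pseudogene, AL513318.2, matches 98.8% of 254 of its bases. MAD2L1, which encodes the MAD2 protein that binds CDC20, averaged 21.2 ± 1.18 FPKM with overexpression and 24.6 ± 1.04 FPKM in controls (ratio 0.862, log2 change -0.21, SE 0.0572, limma adjusted p = 0.0494). BUB3, the WD-repeat partner of BUB1 and BUBR1, did not pass, with 37.0, 34.0 and 34.0 FPKM in the overexpression libraries, against 34.7, 32.7 and 35.6 FPKM in the controls (log2 change 0.03, 95% interval -0.10 to 0.16, limma adjusted p = 0.77). Its groups overlapped, and its sign turned after TPM rescaling and without overexpression replicate 1 or control replicate 2. BUB1B lost its call when any library other than overexpression replicate 1 was dropped (up to 0.0615), CDC20 without any 1 library (adjusted p up to 0.104) and MAD2L1 when any library other than overexpression replicate 1 was dropped (up to 0.152). CDC20 also lost it without the filter and after median-ratio scaling, and MAD2L1 in those settings, after the other scalings, with a pseudocount of 0.1 and with the replicate block.

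**Figure D3:**
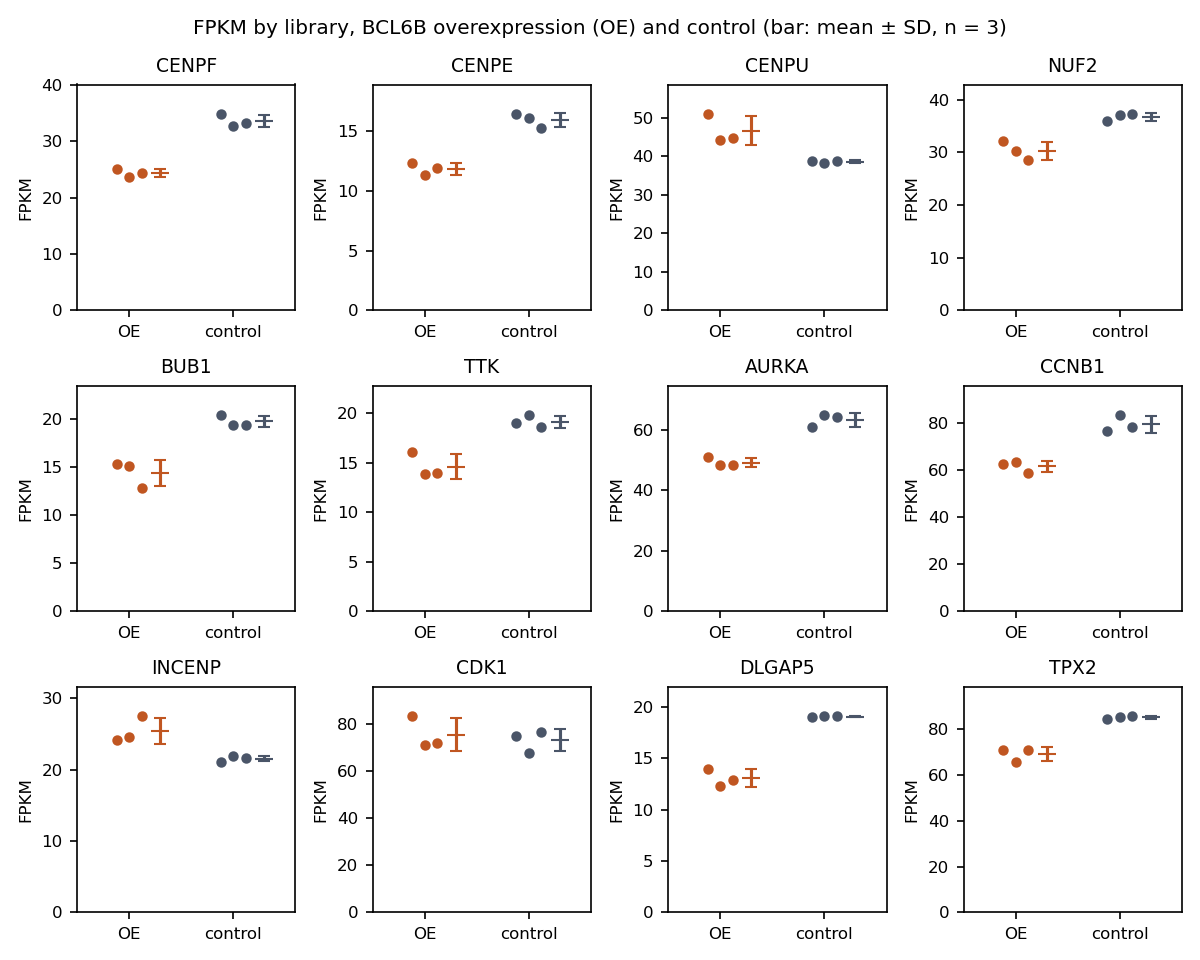
FPKM in each library for 12 members, BCL6B overexpression (orange) left and control (dark) right, with mean ± SD (n = 3). CENPF, CENPE, NUF2, BUB1, TTK, AURKA, CCNB1, DLGAP5 and TPX2 lie lower with overexpression, CENPU and INCENP higher, and CDK1 overlaps.

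Of the kinases, their partners and cyclins 3 fell and 1 rose among 9 (33.3% and 11.1%, where 10.1% and 8.18% of all tested genes did). AURKA, the centrosomal Aurora kinase that builds the spindle poles, had 50.9, 48.4 and 48.3 FPKM in the overexpression libraries, against 60.8, 64.9 and 64.1 FPKM in the controls (ENSG00000087586, chromosome 20, 56369389 to 56392337, minus strand). It fell to 0.778 of control (log2 change -0.36, SE 0.0459, limma adjusted p = 0.00467). CCNB1, cyclin B1, which activates CDK1 at mitotic entry, had 62.7, 63.3 and 58.9 FPKM in the overexpression libraries, against 76.7, 83.5 and 78.2 FPKM in the controls (ENSG00000134057, chromosome 5, 69167010 to 69178245, plus strand). It fell to 0.776 of control (log2 change -0.36, SE 0.0516, limma adjusted p = 0.00638), and for both genes no library overlapped with the other group. CDK1 itself had the highest level of the class on the FPKM scale, with 83.3, 71.1 and 72.0 FPKM in the overexpression libraries, against 74.9, 67.6 and 76.5 FPKM in the controls. Its groups overlapped, its interval included no change and its sign turned without overexpression replicate 1 or control replicate 2 (log2 change 0.05, 95% interval -0.14 to 0.23, limma adjusted p = 0.725). CCNB2, cyclin B2, stood at 0.929 of control with separated groups, and did not pass (log2 change -0.10, 95% interval -0.20 to -0.0043, limma adjusted p = 0.133).

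The chromosomal passenger complex, which corrects wrong attachments, is made of AURKB, INCENP, CDCA8 and BIRC5, and its genes did not move as one. INCENP, its scaffold, had 24.1, 24.5 and 27.5 FPKM in the overexpression libraries, against 21.1, 21.9 and 21.7 FPKM in the controls (ENSG00000149503, chromosome 11, 62123973 to 62153163, plus strand). It rose to 1.18 of control with no overlap (log2 change 0.22, SE 0.0588, limma adjusted p = 0.0417). CDCA8, which encodes borealin, had 32.9, 36.2 and 32.9 FPKM in the overexpression libraries, against 40.6, 41.9 and 37.7 FPKM in the controls, and fell to 0.848 (log2 change -0.23, SE 0.0606, limma adjusted p = 0.0418). AURKB and BIRC5, the kinase and survivin, stood at 0.908 and 0.889 of control with all overexpression libraries below the controls, yet neither passed (limma adjusted p = 0.0967 and 0.119). PLK1, the Polo kinase, showed the same picture at 0.892 (limma adjusted p = 0.114). The difference between INCENP and CDCA8 was not tested. INCENP lost its call when any library other than overexpression replicate 1 was dropped (up to 0.13), without the filter, after TPM rescaling and with the replicate block. CDCA8 lost its call when any library other than overexpression replicate 2 was dropped (up to 0.127), without the filter and after median-ratio scaling or quantile normalization.

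All 12 kinesins were lower on average with overexpression, which held under each of the 17 alternatives (median log2 change -0.24). Of these 6 fell (50.0%, against 10.1% of all tested genes) with 0 rising. Falls were 0 without overexpression replicate 2 or control replicate 3 and 2 without control replicate 1. There were 0 rises at an unadjusted p under 0.05 and with voom, which called 8 falls. KIF2C, encoding MCAK, which takes microtubule ends apart at centromeres, had 32.3, 32.5 and 34.1 FPKM in the overexpression libraries, against 37.5, 38.9 and 40.4 FPKM in the controls. Its ratio was 0.847 (log2 change -0.23, SE 0.0472, limma adjusted p = 0.0184). The chromokinesin KIF4A had 10.2, 10.2 and 10.9 FPKM in the overexpression libraries, against 12.8, 12.2 and 12.5 FPKM in the controls (ratio 0.837, log2 change -0.24, SE 0.0494, limma adjusted p = 0.0204). KIF22, also a chromokinesin, which pushes chromosome arms outward, had 40.9, 40.6 and 45.7 FPKM in the overexpression libraries, against 52.9, 50.0 and 50.8 FPKM in the controls (ratio 0.828, log2 change -0.27, SE 0.0574, limma adjusted p = 0.0221). KIF20A, a motor of the central spindle in cytokinesis, had 14.3, 15.0 and 15.8 FPKM in the overexpression libraries, against 17.2, 19.7 and 18.8 FPKM in the controls (ratio 0.812, log2 change -0.28, SE 0.0654, limma adjusted p = 0.0283). In all 4 every overexpression library lay below every control.

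The kinesin-8 motors, which limit microtubule length, also fell, with KIF18A at 7.06 ± 0.556 FPKM with overexpression and 8.77 ± 0.533 FPKM in controls (limma adjusted p = 0.0388) and KIF18B at 16.2 ± 1.06 FPKM with overexpression and 19.3 ± 0.681 FPKM in controls (limma adjusted p = 0.0348). KIF15, which helps KIF11 hold the poles apart, and KIF20B, a cytokinesis motor, stood at 0.834 and 0.832 of control, within the range of the kinesins that fell, and did not pass (limma adjusted p = 0.0575 and 0.0895). KIF11, the motor that pushes spindle poles apart, was at 32.3 ± 2.30 FPKM with overexpression and 34.2 ± 0.830 FPKM in controls, with overlapping groups (log2 change -0.08, 95% interval -0.22 to 0.06, limma adjusted p = 0.392). The cytokinesis motors KIF14 and KIF23 and the minus-end motor KIFC1 stood at 0.942, 0.950 and 0.958 of control and overlapped as well (limma adjusted p = 0.485, 0.385 and 0.431). Calls depended on single libraries. KIF2C lost its call without overexpression replicate 2 or control replicate 2 or 3 (up to 0.0772), KIF4A without overexpression replicate 2 or control replicate 1 or 3 (up to 0.0813), KIF22 when any library other than overexpression replicate 3 or control replicate 2 was dropped (up to 0.0831), KIF20A when any library other than overexpression replicate 3 or control replicate 1 was dropped (up to 0.0934), KIF18A when any library other than overexpression replicate 1 or control replicate 2 was dropped (up to 0.125) and KIF18B when any library other than overexpression replicate 3 was dropped (up to 0.113). The last 4 also lost their calls without the filter, KIF18A after TPM rescaling and KIF18B after median-ratio scaling.

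In the spindle, cytokinesis and chromosome class 2 of 8 tested genes fell and 0 rose, where 10.1% and 8.18% of all tested genes did. The difference from these shares was not tested, and the list is small. No rise was seen at an unadjusted p under 0.05 or with voom, which called 5 falls. DLGAP5, also called HURP, which stabilises the microtubule fibres at kinetochores, had 14.0, 12.3 and 12.9 FPKM in the overexpression libraries, against 19.0, 19.1 and 19.1 FPKM in the controls (ENSG00000126787, chromosome 14, 55148112 to 55191678, minus strand). This was the member furthest below control on the log2 scale, at 0.686 (log2 change -0.51, SE 0.0545, limma adjusted p = 0.00277). TPX2, the spindle assembly factor that activates AURKA, had 70.9, 65.5 and 70.9 FPKM in the overexpression libraries, against 84.2, 85.1 and 85.7 FPKM in the controls (ENSG00000088325, chromosome 20, 31739271 to 31801805, plus strand), and fell to 0.813 (log2 change -0.30, SE 0.0466, limma adjusted p = 0.00855). Neither gene overlapped between groups. TOP2A, the topoisomerase that untangles sister chromatids, had 61.9, 55.4 and 56.3 FPKM in the overexpression libraries, against 68.1, 63.3 and 67.5 FPKM in the controls (ratio 0.873, log2 change -0.19, 95% interval -0.33 to -0.06, limma adjusted p = 0.0599). ECT2, the exchange factor that triggers RhoA at the cleavage furrow, had 8.12, 8.04 and 7.36 FPKM in the overexpression libraries, against 9.77, 8.53 and 10.1 FPKM in the controls (ratio 0.829, log2 change -0.24, 95% interval -0.41 to -0.07, limma adjusted p = 0.0656). For both, all overexpression libraries were below the controls although neither passed.

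MKI67, the gene of the proliferation marker Ki-67, did not pass, and its sign turned after TPM rescaling and without overexpression replicate 3. It had 53.7, 50.7 and 57.5 FPKM in the overexpression libraries, against 54.5, 50.9 and 52.9 FPKM in the controls, with overlapping groups (log2 change 0.03, 95% interval -0.11 to 0.17, limma adjusted p = 0.755). ANLN, which encodes the furrow protein anillin, and HMMR, a spindle-associated protein, stood at 0.865 and 0.873 of control, overlapping, with limma adjusted p of 0.108 and 0.187. NUSAP1 stood at 0.954 (limma adjusted p = 0.439) and shares 62.2% of its exonic bases with AC087721.2 on the same strand, so its count is uncertain. PRC1, the microtubule bundler of the central spindle, was the only member that did not pass the filter on low values. It had 0.327, 0.446 and 0.379 FPKM in the overexpression libraries, against 0.601, 0.537 and 0.407 FPKM in the controls. Its reads are uncertain too, since 57.6% of its exonic bases lie in AC068831.7 on the same strand, a gene that had 3.22, 2.87 and 3.45 FPKM in the overexpression libraries, against 3.82, 4.21 and 3.96 FPKM in the controls.

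**Figure D4:**
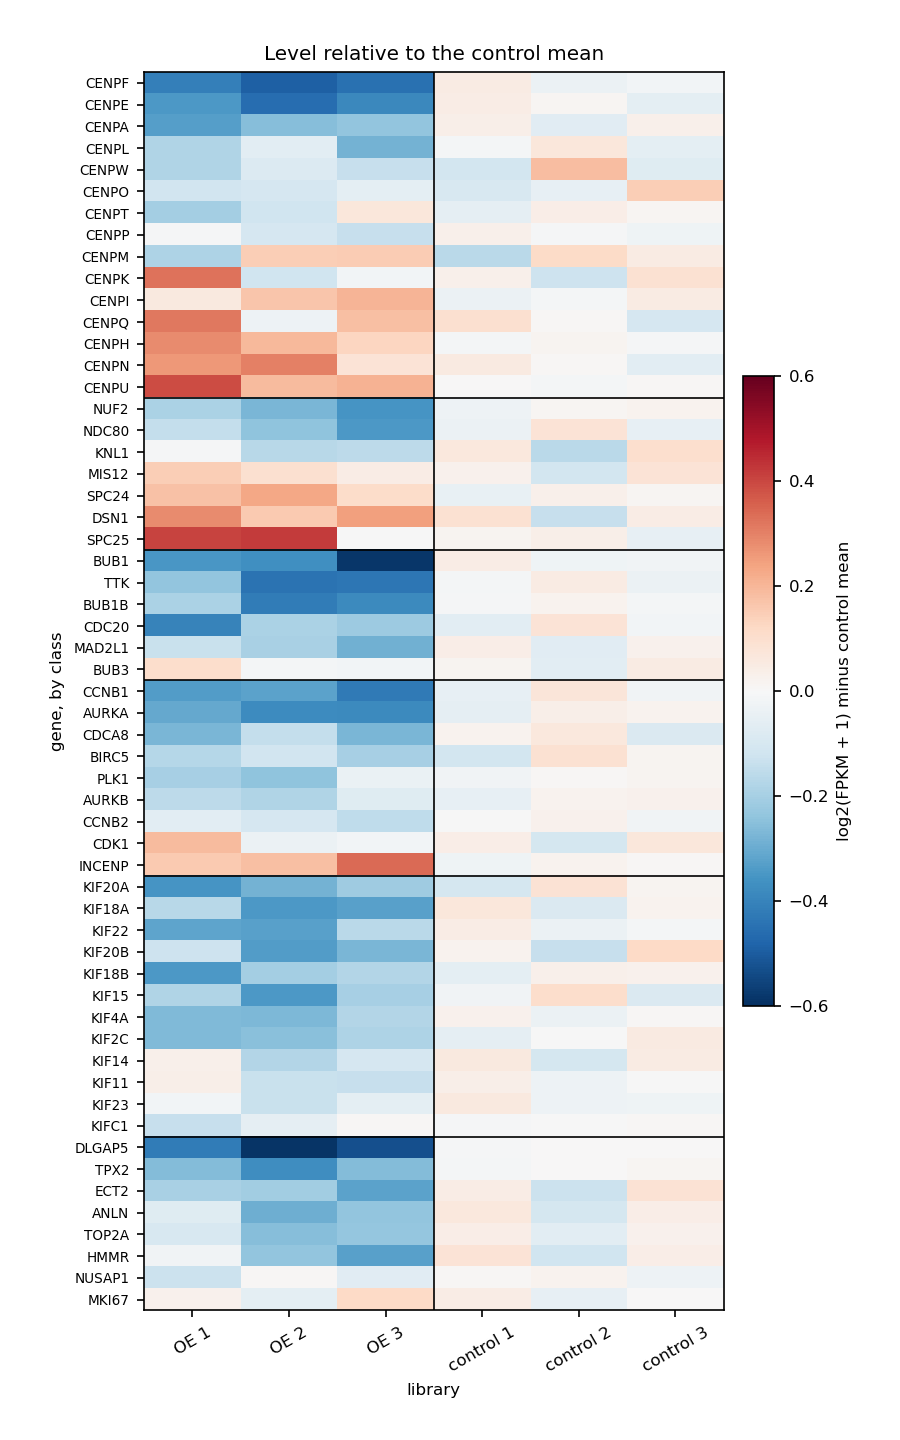
Level of each tested member in each library, as log2(FPKM + 1) minus the mean of the 3 controls, by class (blue lower, red higher; OE, overexpression). The checkpoint genes except BUB3, and the kinesins, are mostly blue in the 3 overexpression columns, while CENPH, CENPN, CENPU, SPC24, DSN1 and INCENP are red.

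Of the 21 calls downward 8 held in every one of the 17 alternatives, including each fit with a library left out: CENPF, CENPE, BUB1, TTK, AURKA, CCNB1, DLGAP5 and TPX2. None of the 3 calls upward held in every fit with a library left out. No member that passed turned its sign in an alternative. Of the members that did not pass, some did with 1 library left out, with these limma adjusted p-values: CENPN without overexpression replicate 3 (0.0429), SPC25 without overexpression replicate 3 (0.0132), PLK1 without overexpression replicate 3 (0.0277), TOP2A without overexpression replicate 1 (0.0295), ANLN without overexpression replicate 1 (0.0479) and ECT2 without control replicate 2 (0.0389). The mean of log2(FPKM + 1) over the 57 members was 4.33, 4.28 and 4.28 in the overexpression libraries and 4.42, 4.41 and 4.43 in the controls. The checkpoint class had means of 4.69, 4.62 and 4.57 with overexpression and 4.90, 4.89 and 4.89 in controls. The outer kinetochore class overlapped, with 3.998, 3.93 and 3.84 under overexpression and 3.92, 3.87 and 3.93 in controls.

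Further genes of mitosis were examined by list. Among 21 further kinetochore genes 4 fell and 1 rose (19.0% and 4.76%, where 10.1% and 8.18% of all tested genes did). Falls were 1 without control replicate 1 or 3 and 2 without overexpression replicate 2 or 3, and the rise was lost as given below. KNSTRN, a spindle and kinetochore protein, fell to 0.741 of control (log2 change -0.42, SE 0.0527, limma adjusted p = 0.00444). CENPC, which anchors the kinetochore to the CENPA nucleosome, fell to 0.762 and HJURP, the chaperone that deposits CENPA, to 0.870, while SKA2, of the microtubule-tracking SKA complex, rose to 1.19 (limma adjusted p = 0.0266, 0.0305 and 0.0293). CENPC lost its call when any library other than overexpression replicate 1 or control replicate 2 was dropped (up to 0.0923), HJURP when any library other than overexpression replicate 3 was dropped (up to 0.116) and SKA2 when any library other than overexpression replicate 3 was dropped (up to 0.0991). Of 30 centrosome and spindle assembly genes 8 fell (26.7%) and 0 rose, where 10.1% and 8.18% of all tested genes did. There were 0 rises also at an unadjusted p under 0.05 and with voom. Falls were 2 without overexpression replicate 2 or control replicate 1 or 3 and 5 without overexpression replicate 3. CKAP5, a microtubule polymerase, and NEK2, a centrosome kinase, fell to 0.816 and 0.771 (limma adjusted p = 0.00632 and 0.011). SPAG5, which encodes astrin, and CEP192, a centrosome scaffold, fell to 0.847 and 0.748 (limma adjusted p = 0.0168 and 0.0238), and lost the call without overexpression replicate 2 or control replicate 1 or 3 (up to 0.0714) and when any library other than overexpression replicate 1 or control replicate 2 was dropped (up to 0.0814).

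Among 22 condensin and cohesin genes 5 fell (22.7%) and 0 rose, where 10.1% and 8.18% of all tested genes did. There were 2 rises at an unadjusted p under 0.05 and 1 with voom. The condensin genes NCAPH, SMC4 and NCAPD3 and the cohesin protector SGO1 fell to 0.878, 0.855, 0.879 and 0.798 of control (limma adjusted p = 0.0218, 0.0287, 0.0308 and 0.0243), and falls in the list were 0 without overexpression replicate 2 or control replicate 1, 2 or 3 and 1 without overexpression replicate 3. NCAPH lost it when any library other than overexpression replicate 1 or 3 was dropped (up to 0.0852), SMC4 when any library other than overexpression replicate 1 was dropped (up to 0.102), NCAPD3 without any 1 library (adjusted p up to 0.117) and SGO1 when any library other than overexpression replicate 1 was dropped (up to 0.0858). The anaphase-promoting complex, which ends mitosis by marking cyclin B and securin for breakdown, had 3 of 18 genes falling and 2 rising (16.7% and 11.1%, where 10.1% and 8.18% of all tested genes did; falls were 1 without control replicate 3, and rises 1 without control replicate 1). ANAPC7 fell to 0.750 and ANAPC16 rose to 1.29 (log2 change -0.40, SE 0.0488, limma adjusted p = 0.00405 and log2 change 0.36, SE 0.0577, limma adjusted p = 0.00903). UBE2S, its ubiquitin-conjugating enzyme, stood at 1.21 and ANAPC1 at 0.711 (limma adjusted p = 0.0116 and 0.0149). Both have near-identical copies elsewhere that could share reads, UBE2S lost its call without control replicate 1 (up to 0.0541) and ANAPC1 without control replicate 3 (up to 0.0576).

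Among 23 regulators of the mitotic programme 3 fell and 3 rose (13.0% each way, close to the 10.1% and 8.18% of all tested genes; falls were 1 without overexpression replicate 2 or control replicate 1, 2 or 3, and rises 0 without overexpression replicate 2 or control replicate 3 and 1 without overexpression replicate 3 or control replicate 1). BORA, the activator of AURKA upstream of PLK1, had 10.01, 9.71 and 9.80 FPKM in the overexpression libraries, against 16.4, 15.8 and 15.8 FPKM in the controls. It fell to 0.615 of control (log2 change -0.65, SE 0.0443, limma adjusted p = 0.000559), though 37% of its exonic bases overlap DIS3 on the other strand. CDC25C, the phosphatase that switches on CDK1, fell to 0.817 and CDC25A rose to 1.24 (limma adjusted p = 0.0374 and 0.0158). MYBL2 and the NF-Y subunit gene NFYA rose to 1.16 and 1.199, and RBL2, the p130 protein of the DREAM complex, fell to 0.831 (limma adjusted p = 0.0413, 0.0299 and 0.0258). CDC25C and MYBL2 were not called without any 1 library (adjusted p up to 0.121 and 0.127), CDC25A without overexpression replicate 2 or control replicate 3 (up to 0.0575), NFYA when any library other than overexpression replicate 1 or control replicate 2 was dropped (up to 0.106) and RBL2 when any library other than overexpression replicate 1 or 3 was dropped (up to 0.0912). FOXM1 stood at 0.911 of control (95% interval of the log2 change -0.29 to 0.04, limma adjusted p = 0.243) and CCNA2, cyclin A2, at 0.908 (-0.28 to -0.00062, 0.145). The MuvB and DREAM genes LIN9, LIN54, E2F4 and RBL1 and the CDK1-inhibiting kinases WEE1 and PKMYT1 stood at 1.04, 1.12, 0.943, 1.12, 1.16 and 1.13, and none of them passed (limma adjusted p from 0.183 to 0.606).

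Among genes of the earlier G1/S stage 12 of 40 rose and 2 fell (median log2 change 0.10, 0 falls under each of the 3 other scalings). That was 30.0% rising and 5.0% falling, where 8.18% and 10.1% of all tested genes did. Falls numbered 0 to 5 across the alternatives. Rises numbered 6 to 14 across them, 6 without control replicate 3 and 7 without overexpression replicate 2 or control replicate 1. CCNE1, cyclin E1, rose to 1.78 of control, RRM2, a ribonucleotide reductase subunit, to 1.53, the origin licensing gene CDC6 to 1.603 and the flap endonuclease gene FEN1 to 1.37 (limma adjusted p = 0.00796, 0.000919, 0.0018 and 0.00788). RRM2 shares 20.2% of its exonic bases with AC007240.1 on the same strand. CDKN1A, which encodes the CDK inhibitor p21 that promotes assembly of the DREAM complex, had 2.40, 2.72 and 2.29 FPKM in the overexpression libraries, against 0.499, 0.432 and 0.548 FPKM in the controls. It stood at 5.01-fold of control (log2 change 1.22, SE 0.0885, limma adjusted p = 0.000732), and its part in the levels of the mitotic genes was not tested.

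**Figure D5:**
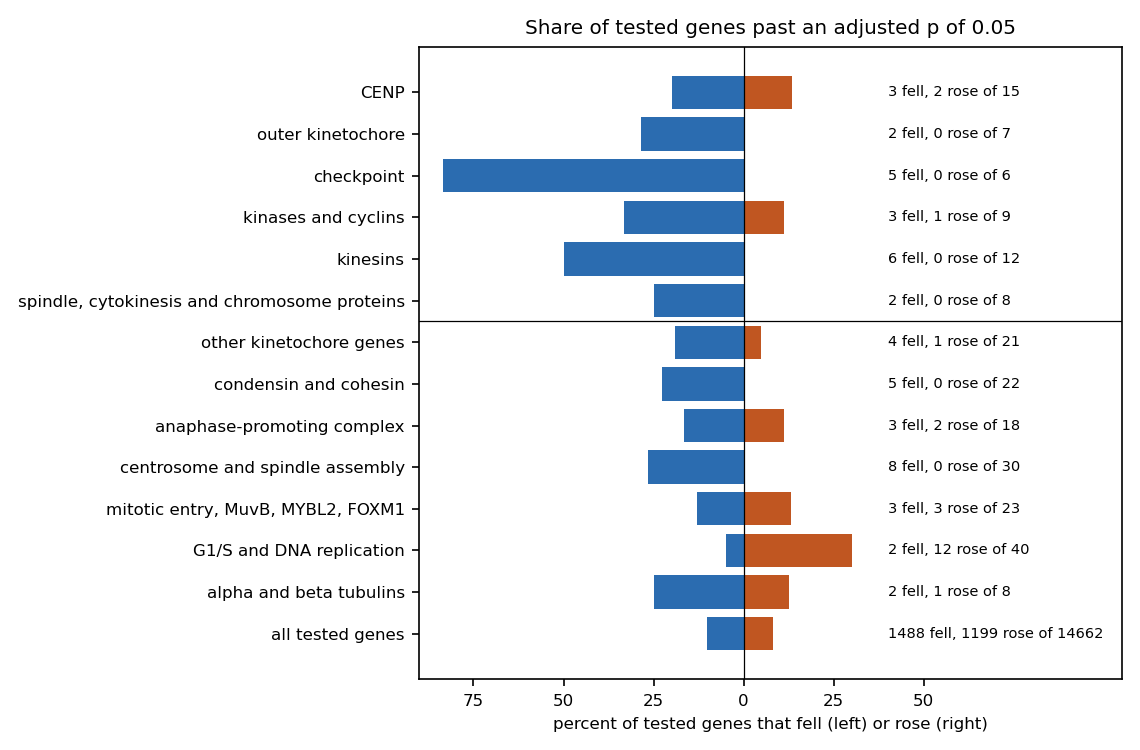
Percent of tested genes that fell (blue, left) or rose (orange, right) at an adjusted p under 0.05, for the 6 mitotic classes (above the line) and the other lists and all tested genes (below it). The checkpoint class has 5 of 6 falling, while the G1/S list has 12 of 40 rising.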

How the data were processed

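RNA of 3 U937 libraries overexpressing BCL6B and of 3 controls was sequenced. The authors deposited FPKM values, with a column for each library, and a gene length in bases. The submitters' processing notes name cutadapt 1.9 and the build GRCh38; no aligner, counter or strand setting is named there or in the labels. Printed gene coordinates come from the deposited table and match GENCODE 29 for all 58 members. Each value times its gene length was a whole multiple of 1 step per library within 0.01 for 100% of values above 0, which gave the number of reads. Printed errors cover the spread between libraries.

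Genes with at least 0.5 FPKM in at least 3 libraries (14662) entered a two-sided limma test (version 3.58.1, R 4.3.3; trended prior variance) on log2(FPKM + 1), with Benjamini-Hochberg adjustment and a threshold of 0.05. A log2 change on this scale understates low genes. The members and lists were chosen with earlier results of these data known. Values per library are given in each class for the 4 leading members by adjusted p, the one furthest against the class median and the one with the highest mean. From the other lists up to 4 called genes with the smallest adjusted p are named, with a set list of regulators. Other members are given by means or ratios, and 2 marker genes are not reported here. Near-identical copies (98% over 200 bases, BLAST+ 2.17.0) and shared exons were looked up in GENCODE 29.

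On simulated reads (14972 genes tested, 1 dispersion of 0.0035) the procedure recovered 10% of 50 genes changed 1.25-fold, 54% of 50 at 1.5-fold, 67.3% of 49 at 2-fold and 95.8% of 48 at 4-fold, with 16 calls among 14775 unchanged genes. The changed genes were drawn from all genes passing the filter, whose median level in the deposited data was 4.55 FPKM, against 18.8 FPKM for the members. These rates therefore do not give the recovery for the members. Alternatives were the pseudocount, the filter, 3 scalings, voom on the recovered reads, the replicate block, a GC and length spline with and without that block, and leaving out each library.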

Additional observations from a re-analysis of the deposited data

How the results depend on the processing

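The median log2 change of the members was negative in each of the 17 alternatives, at -0.14 after median-ratio scaling, -0.13 after quantile normalization and -0.20 after TPM rescaling, and -0.17 to -0.16 when 1 library was left out. The number of falls was 13 without the filter on low values and 8 to 18 with 1 library left out, where fewer libraries were tested. The number of rises was 0 without the filter, 5 after median-ratio scaling, 0 after TPM rescaling, 5 with the replicate block and the GC and length spline, and 0 to 4 with 1 library left out. Over all genes 1588 passed without the filter and 1222 to 2272 with 1 library left out, against 2687. With the replicate block alone 2328 genes passed, 20 members fell and 2 rose. Same-numbered libraries deviated together with correlations of 0.0511, 0.11 and -0.00189. Overexpression replicates 1 and 2 correlated best with the control of the same number, and replicate 3 with control replicate 1 (0.0386). Over all combinations the correlations were weak, from -0.0909 to 0.11, and the numbers were not taken as pairs. Voom called 26 falls (45.6%) and 4 rises among the members. It also called more genes over the whole table, 3567 against 2687, and 13.0% of all tested genes fell with it, against 10.1%. Of the 33 members that did not pass 13 did so in at least 1 alternative. Signs turned for 5 members that did not pass, and the cause was not tested. With 1 library left out the log2 change of CENPK was -0.0682 (without overexpression replicate 1) to 0.154, that of CENPM -0.0414 to 0.151, that of BUB3 -0.0132 to 0.0527, that of CDK1 -0.0267 to 0.0863 and that of MKI67 -0.0153 to 0.0736. CENPM was at -0.0195 with the spline, with or without the block. After TPM rescaling the log2 change of BUB3 was -0.00463 and that of MKI67 -0.00177. CENPI had the fewest reads of the tested members, from 195 in a control library, and such genes have the widest counting error.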

Other observations

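Tubulin genes, the building blocks of the spindle, did not move as one. TUBA1A had 20.9, 23.1 and 24.9 FPKM in the overexpression libraries, against 14.0, 14.8 and 14.2 FPKM in the controls. TUBA1B had 68.8, 71.4 and 79.8 FPKM in the overexpression libraries, against 94.0, 95.7 and 94.6 FPKM in the controls. TUBA1C had 27.1, 26.3 and 28.4 FPKM in the overexpression libraries, against 31.4, 34.0 and 32.1 FPKM in the controls. The first rose to 1.61 of control and the other 2 fell to 0.774 and 0.839 (limma adjusted p = 0.00264, 0.01 and 0.0196), the last losing its call without overexpression replicate 2 or control replicate 2 or 3 (up to 0.0729). These 3 genes share stretches of at least 98% identity over 200 bases or more, so reads could be split between them, and 36.6% of the exonic bases of TUBA1B overlap AC011603.2 on the other strand. The beta tubulins had 0 calls by limma, with TUBB4B (1.152 of control) the 1 at an unadjusted p under 0.05 and the 1 that voom called.

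Within the overexpression group the members did not all spread alike. CENPK had 18.5, 13.3 and 14.4 FPKM in the overexpression libraries, against 15.0, 13.3 and 15.6 FPKM in the controls, and CENPQ had 11, 8.43 and 9.93 FPKM in the overexpression libraries, against 9.32, 8.68 and 7.98 FPKM in the controls, each highest in overexpression replicate 1. SPC25 had 9.90, 10 and 7.21 FPKM in the overexpression libraries, against 7.33, 7.43 and 6.95 FPKM in the controls, with overexpression replicate 3 apart from the other two.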
